A study of Mus musculus with 4 samples.

Results

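The cells described here are 240 non-cycling regulatory T cells from mouse colon tumours treated with anti-PD-1, an antibody that blocks the inhibitory receptor PD-1. They were chosen from the deposited expression values of the anti-PD-1 library. A cell had to have Cd3e, Foxp3 and Cd4 above 0, Cd4 above both Cd8a and Cd8b1, and Mki67 at 0. The rule found 240 of the 12562 cells of that library, 1.91% (exact 95% Clopper-Pearson interval 1.68% to 2.17%), among 13213 cells in all 4 libraries. They are called non-cycling Foxp3+ cells below. They were set against 658 cells of the same library and the same Cd4 gate with Foxp3 and Mki67 both at 0, called Foxp3=0 cells. Foxp3, Cd3e, Cd4, Cd8a, Cd8b1 and Mki67 chose the cells, so their values are a description and were left out of every count of genes.

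The libraries were made by droplet single-cell RNA sequencing of orthotopic tumours of the MC38 mouse colon carcinoma line in C57BL/6 mice. There were 4 arms: anti-PD-1 alone, 3 doses a week to a total of 5; Atractylenolide I (ATT-I), a plant sesquiterpene lactone, alone at 50 mg/kg each day; the combination of both; and vehicle, which the sample's own entry calls no treatment. Every arm pooled 5 tumours, collected 2 weeks after treatment began, into 1 library. With 1 library per arm, and with both groups of cells taken from the same library, no test was possible: cells are not replicates, every value below describes these libraries, and intervals cover counting error only.

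Regulatory T cells are CD4 T cells that restrain other immune cells, and the transcription factor Foxp3 keeps up their programme. They take up interleukin-2 through a high-affinity receptor, strip costimulatory ligands from antigen-presenting cells through Ctla4, and release or activate inhibitory cytokines such as interleukin-10 and TGF-beta. In tumours they are often activated, carry receptors of the TNF receptor superfamily such as OX40 and GITR, and can make amphiregulin, an epidermal growth factor receptor ligand known for its part in tissue repair.

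A unique molecular identifier, UMI, counts 1 captured RNA molecule. A gene's level is its summed UMIs over the summed UMIs of the cells, per 10000. The 240 cells held 2304 to 23726 UMIs each, with a median of 6212, against a median of 5452.5 in Foxp3=0 cells. Mitochondrial genes took 1.99% of UMIs in non-cycling Foxp3+ cells and 2.36% in Foxp3=0 cells, and ribosomal protein genes 25.3% and 27.1%. Of the barcodes in the table, 1 was found in more than 1 library.

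Most of the gate was decided by few molecules. Of 1840 Foxp3+ cells in the library, 1722 had Cd3e, and 969 of those had Cd4 at 0. A further 357 had Cd4 but not above Cd8a and Cd8b1, which left 396 cells in the gate, of which 156 had Mki67 and are called cycling. Among the 240, 104 cells had 1 Foxp3 UMI, 61 had 2 and 75 had 3 or more, up to 11. In 100 of them Cd4 rested on 1 UMI, and 72 had some Cd8a or Cd8b1.

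Cells just inside and just outside the rule carried related levels of the other markers. Ikzf2, which encodes the Foxp3 partner Helios, stood at 11.6 UMIs per 10000 in the 152 cells whose Cd4 exceeded Cd8a and Cd8b1 by 1 UMI, and at 11.9 in the 115 Mki67=0 Foxp3+ cells in which Cd4 only equalled the higher of them. It was 7.65 in the 92 cells with Cd4 below Cd8a or Cd8b1 and 8.11 in the 650 Mki67=0 Foxp3+ cells with Cd4 at 0. In the last group Cd8a stood at 4.99 and Ccl5, a chemokine abundant in CD8 T cells, at 42.9, against 0.346 and 18.9 in the 152 cells just inside. The 70 cycling cells with only 1 Mki67 UMI had Ikzf2 at 12.0 and Top2a, a DNA topoisomerase of dividing cells, at 1.41. The Foxp3+ T cells left out by the rule are thus more numerous than those it kept.

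Foxp3 chose the cells, so its share in them is a description. A Foxp3 UMI was found, after thinning each cell to 3000 UMIs, in 68.5% of non-cycling Foxp3+ cells (interval 62.1% to 74.5%, 232 cells, 8 shallower cells left out). The same share in 4810 non-cycling CD8 cells, with Cd8a and Cd8b1 present and Cd4 at 0, was 2.72% (2.28% to 3.22%, 103 left out). Median depth before thinning was 6212 UMIs in non-cycling Foxp3+ cells and 7003 in the CD8 cells. The label was checked on the markers that the rule did not use. Of Ikzf2, Il2ra, Ctla4 and Areg, at least 3 were found together in 162 of 240 non-cycling Foxp3+ cells (67.5%), in 115 of 658 Foxp3=0 cells (17.5%) and in 6.53% of CD8 cells. None of these 4 was seen in 5 of the 240 cells. Most of the cells the rule took thus carried several of these markers, and so did some Foxp3=0 cells.

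Markers of other cell types were summed as lists. B cell markers summed to 0.602 UMIs per 10000 in non-cycling Foxp3+ cells and 0.116 in Foxp3=0 cells, from Igkc, Cd79b and Cd79a (Ms4a1 was not analysed here). Tumour epithelial markers summed to 0.366 and 0.104, mostly Epcam, with Krt19 at 0 in the non-cycling Foxp3+ cells. Monocyte or macrophage markers summed to 0.813 in non-cycling Foxp3+ cells and 1.01 in Foxp3=0 cells, NK markers to 0.739 and 1.08, gamma-delta T markers to 0.255 and 0.291, fibroblast markers to 0.174 and 0.205, and haemoglobin genes to 0.925 and 1.08. The dendritic cell sum of 3.17 in non-cycling Foxp3+ cells and 3.70 in Foxp3=0 cells was nearly all Cst3, found in 77.5% of non-cycling Foxp3+ cells and 70.2% of Foxp3=0 cells, and Flt3 was at 0. CD8 and cytotoxic markers summed to 27.2 in non-cycling Foxp3+ cells, 25.1 in Foxp3=0 cells and 121 in CD8 cells.

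Across the genome, 6029 genes had a UMI in at least 10% of the cells of either group. Of these, 520 (8.62%) were at least 1.5-fold higher in non-cycling Foxp3+ cells and 374 (6.2%) were at least 1.5-fold lower. The median log2 ratio of all 6029 was 0.03. The cells were chosen by Foxp3, so these shares describe how far the groups stood apart and serve as the background for each list below. A gene that reached the 10% filter only in the group where it was higher had to differ, so the counts and medians of the lists describe the genes that passed and support nothing further.

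**Figure D1:**
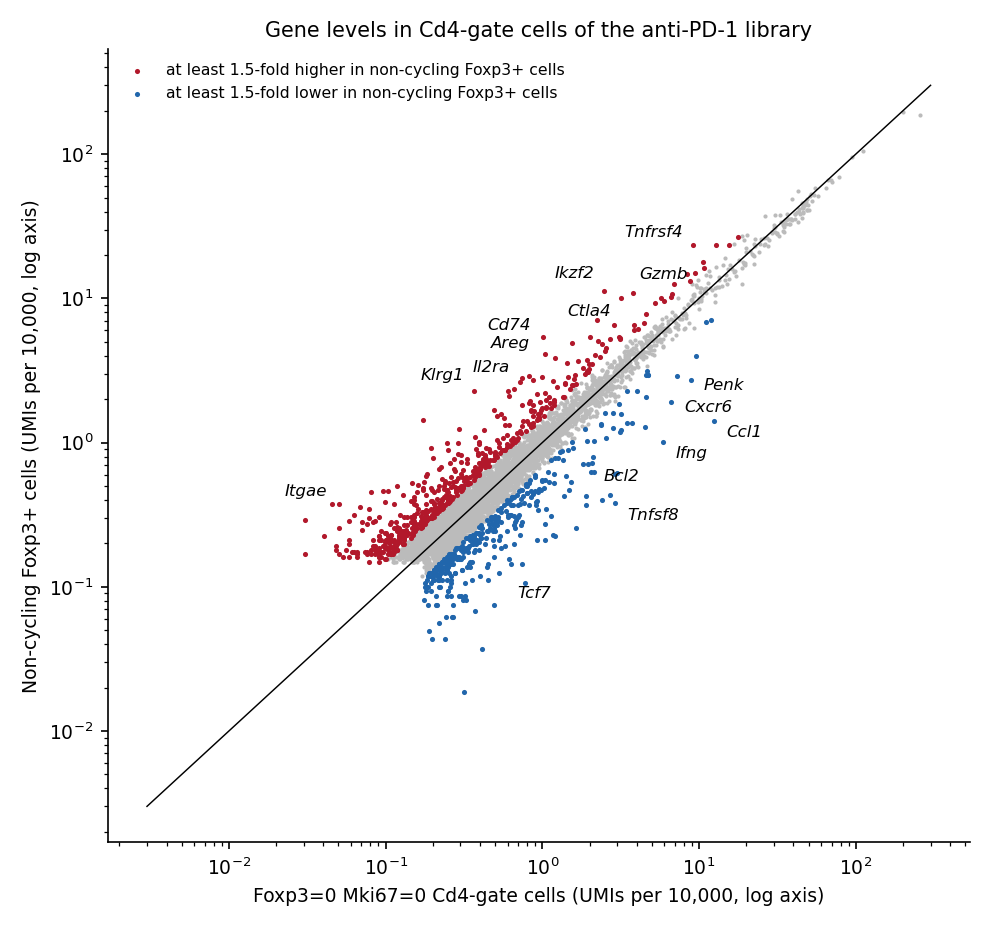
Level of each of the 6029 genes in non-cycling Foxp3+ cells (vertical axis) and in Foxp3=0 cells (horizontal axis), in UMIs per 10000, both axes logarithmic. The line marks equal levels, red points are the 520 genes at least 1.5-fold higher in non-cycling Foxp3+ cells and blue points the 374 at least 1.5-fold lower, with Tnfrsf4 among the named genes above the line and Ccl1 below it.

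Ranked by size alone, the 15 genes most raised in non-cycling Foxp3+ cells mixed known regulatory T cell genes with others. Klrg1, an inhibitory receptor for cadherins, had 2.29 UMIs per 10000 in non-cycling Foxp3+ cells and 0.367 in Foxp3=0 cells. Itgae, the CD103 integrin chain that binds E-cadherin, had 0.373 and 0.0506. Rapsn, which encodes the acetylcholine receptor scaffold rapsyn, had 1.43 and 0.172 and was found in 36.7% and 8.51% of the cells. Ncmap and Csrp2 had the other log2 ratios above 3, at 3.27 (2.33 to 4.32) and 3.03 (2.25 to 3.88), at low levels of 0.292 and 0.373 in non-cycling Foxp3+ cells. Pcsk1, F830016B08Rik, Rragd, Cd74, Lrrc32, Vill, Gda, Frmd5, Itih5 and Swap70 completed the 15, with log2 ratios of 2.23 to 2.49.

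On the lower side the ranking held several ligands. Ccl1, the chemokine bound by CCR8, had 1.42 UMIs per 10000 in non-cycling Foxp3+ cells and 12.5 in Foxp3=0 cells. The 12 richest non-cycling Foxp3+ cells held 93.9% of that group's Ccl1 UMIs, and the 33 richest Foxp3=0 cells 76.4% of theirs. Tnfsf8, the CD30 ligand, had 0.379 and 2.91, and Tnfsf11, the RANK ligand, had 0.397 and 2.40. Gm14718 had the lowest log2 ratio, -4.09 (-6.38 to -2.51), on 3 UMIs in non-cycling Foxp3+ cells and 125 in Foxp3=0 cells. Others were Bace2, Nmrk1, Klri2, Igfbp7, Nrgn, Ifng, Parp8, Sema6d, Tbc1d4, Zeb2 and Gzmf, with log2 ratios between -3.48 and -2.37.

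Most genes of regulatory T cell identity were at least 1.5-fold higher. Of 13 that passed the 10% filter, out of 14 listed and 13 in the table, 11 were at least 1.5-fold higher in non-cycling Foxp3+ cells and 1 was lower, with a median log2 ratio of 1.52. Foxp3 itself (chrX:7573644-7595245, plus strand, GRCm38) stood at 3.24 UMIs per 10000 (2.97 to 3.53), a level set by the rule. Over the single cells its lowest, median and highest levels were 0.482, 2.74 and 17.4.

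Ikzf2 (chr1:69531214-69687245, minus strand) had 11.3 UMIs per 10000 in non-cycling Foxp3+ cells and 2.49 in Foxp3=0 cells, a log2 ratio of 2.18 (2.07 to 2.29). Its cell-by-cell median was 11.5 and its highest value 40.7 in non-cycling Foxp3+ cells, while the median Foxp3=0 cell had none and the highest 29.2. It was found in 92.9% of non-cycling Foxp3+ cells and 47.1% of Foxp3=0 cells, so the groups overlapped although their middles were far apart.

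Il2ra (chr2:11642807-11693193, plus strand), the alpha chain of the high-affinity interleukin-2 receptor, had 2.63 and 0.718 UMIs per 10000, a log2 ratio of 1.87 (1.65 to 2.09). Ctla4 (chr1:60887000-60915832, plus strand) had 10.1 and 3.17, a log2 ratio of 1.67 (1.57 to 1.78), and was seen in 90% and 58.8% of the cells. The most Ctla4-rich non-cycling Foxp3+ cell reached 64.6 and the median one 7.78, against 49.8 and 1.61 among Foxp3=0 cells.

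Other identity genes followed. Lrrc32, which encodes GARP, the surface dock of latent TGF-beta, had 0.360 UMIs per 10000 in non-cycling Foxp3+ cells and 0.0683 in Foxp3=0 cells. Izumo1r, folate receptor 4, had 2.84 and 0.994. Swap70, an actin-binding signalling protein, had 0.913 and 0.195. Ikzf4, which encodes the Foxp3 co-repressor Eos, had 0.646 and 0.314. Cd5, a brake on T cell receptor signalling, was level at 3.22 and 3.07. Nrp1, a surface protein used in mice to mark regulatory T cells of thymic origin, was the exception, at 0.478 in non-cycling Foxp3+ cells and 0.949 in Foxp3=0 cells (log2 ratio -0.99, -1.36 to -0.63). Its direction turned, to 0.40, without cells with UMIs of CD8, B, NK, monocyte, macrophage or dendritic markers, which left 21 non-cycling Foxp3+ cells and 92 Foxp3=0 cells.

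Il2ra, Areg and Ctla4 are among the markers that set these cells apart, and their start sites are annotated. The promoters of Il2ra and Areg are shown. Each held a match to 1 of the motifs below, and the Ctla4 promoter, which is not shown, held none. The sequences are the 250 bases upstream of the start site on the plus strand, from RefSeq on GRCm38.p6, at chr2:11642542-11642791 for Il2ra and chr5:91139349-91139598 for Areg. Capitals mark the only matches, on either strand, to 4 motifs: the STAT motif TTCNNNGAA, the forkhead motif TGTTTAC, the kappa-B motif (GGGA, any 4 bases, CC) and the cyclic AMP response element TGACGTCA.
Il2ra: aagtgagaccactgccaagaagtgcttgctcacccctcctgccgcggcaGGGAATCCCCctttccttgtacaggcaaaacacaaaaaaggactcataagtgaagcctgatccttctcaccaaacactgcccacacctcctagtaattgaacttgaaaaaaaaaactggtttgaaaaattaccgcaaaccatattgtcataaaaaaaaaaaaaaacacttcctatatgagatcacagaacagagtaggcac
Areg: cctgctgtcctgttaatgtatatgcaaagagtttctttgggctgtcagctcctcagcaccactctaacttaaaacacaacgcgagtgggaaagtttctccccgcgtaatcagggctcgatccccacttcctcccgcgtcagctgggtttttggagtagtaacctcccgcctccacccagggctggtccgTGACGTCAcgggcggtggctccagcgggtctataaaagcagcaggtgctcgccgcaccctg

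The Il2ra match is to the kappa-B motif, beginning 201 bases before the start site, and the Areg match is to the cyclic AMP response element, beginning 61 bases before it. The kappa-B and cyclic AMP motifs were chosen after these promoters had been read. In windows of 300 bases, 250 before and 50 after each start site, the kappa-B motif was found in 26.4% of the 523 promoters of genes at least 1.5-fold higher in non-cycling Foxp3+ cells, in 25.8% of the 6134 promoters of genes tested and in 20.7% of all 32851 mouse promoters. In the same order, the cyclic AMP motif was found in 1.34%, 3.51% and 1.79%, the STAT motif in 9.37%, 6.86% and 8.30%, and the forkhead motif in 2.87%, 2.85% and 3.65%. The Ctla4 promoter held none of the 4.

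Genes known from regulatory T cells of tumours and tissues were mixed. Of 13 that passed the filter, out of 15 listed, 7 were at least 1.5-fold higher in non-cycling Foxp3+ cells and 1 was lower, with a median log2 ratio of 0.59. Areg (chr5:91139599-91148432, plus strand) had 4.09 UMIs per 10000 in non-cycling Foxp3+ cells and 1.03 in Foxp3=0 cells, a log2 ratio of 1.99 (1.81 to 2.17). Only 37.1% of non-cycling Foxp3+ cells and 14% of Foxp3=0 cells carried it. The median cell of either group had none, and the richest had 122 in non-cycling Foxp3+ cells and 115 in Foxp3=0 cells. The 12 richest of the 240 cells, 5% of them, held 54.0% of all their Areg UMIs. The 33 richest Foxp3=0 cells, also 5%, held 85.3% of theirs.

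The Areg ratio was also read without the cells that carried markers of other cell types. At least 1 tumour epithelial marker was found in 16.7% of non-cycling Foxp3+ cells and 4.71% of Foxp3=0 cells. The Areg log2 ratio was 1.73 without cells with tumour epithelial markers (200 non-cycling Foxp3+ cells and 627 Foxp3=0 cells) and 1.11 without cells with UMIs of CD8, B, NK, monocyte, macrophage or dendritic markers other than Cst3 (78 and 223 cells). Their part in the Areg level was not tested beyond these values. Both alternatives were chosen after the data had been seen. Klrg1 (chr6:122270596-122282882, minus strand), found in 49.6% of non-cycling Foxp3+ cells and 10.0% of Foxp3=0 cells, had log2 ratios of 2.64 (2.36 to 2.93) over all cells, 2.71 without tumour markers and 2.03 without the other types.

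Tnfrsf1b, TNF receptor 2, had 1.32 UMIs per 10000 in non-cycling Foxp3+ cells and 0.577 in Foxp3=0 cells, and Prdm1, which encodes the effector regulator Blimp-1, had 0.522 and 0.253. Batf, an AP-1 family factor of effector cells, lay at the threshold with 1.53 and 1.02. Ccr8, a chemokine receptor of tumour regulatory T cells, had 0.261 and 0.182, short of 1.5-fold, with an interval that spans equality (log2 ratio 0.52, -0.07 to 1.09). Il1rl1, the interleukin-33 receptor, Gata3 and Rora also lay within 1.5-fold. Il1r2, the decoy interleukin-1 receptor, was lower, at 1.07 and 2.56.

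Suppressive effector genes were mixed. Of 12 that passed the filter, out of 13 listed, 6 were at least 1.5-fold higher in non-cycling Foxp3+ cells and 1 was lower, with a median log2 ratio of 0.59. Both chains of the TGF-beta-activating integrin were higher: Itgb8 had 0.509 UMIs per 10000 in non-cycling Foxp3+ cells and 0.162 in Foxp3=0 cells, and Itgav had 1.93 and 0.830. Tgfb1 itself was close, at 2.34 and 2.76. Entpd1, the ATP-degrading ectoenzyme CD39, had 0.851 and 0.390, whereas Nt5e, the CD73 enzyme that acts after it, had 0.677 and 0.807.

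Il10 had 0.484 UMIs per 10000 in non-cycling Foxp3+ cells and 0.195 in Foxp3=0 cells, a log2 ratio of 1.31 (0.84 to 1.79). It came from few cells, 11.2% of non-cycling Foxp3+ cells and 2.43% of Foxp3=0 cells, and the 12 richest held 80.8% of its UMIs in the first group. In the second group the 33 richest held 100%. Ebi3, a subunit of interleukin-35, had 0.565 and 0.478.

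Gzmb, the cytotoxic protease granzyme B, had 10.8 UMIs per 10000 in non-cycling Foxp3+ cells and 3.80 in Foxp3=0 cells, a log2 ratio of 1.51 (1.41 to 1.61), and 16.6 in CD8 cells. Over single cells the median and highest Gzmb levels were 4.72 and 156 in non-cycling Foxp3+ cells and 1.67 and 101 in Foxp3=0 cells. Without the cells that had any Cd8a or Cd8b1 UMI, 168 non-cycling Foxp3+ cells and 408 Foxp3=0 cells, the log2 ratio was 1.44. Cd8a was found after thinning in 7.76% of non-cycling Foxp3+ cells and 10.8% of Foxp3=0 cells. Prf1, perforin, had 0.677 and 0.468. Penk, the enkephalin precursor, was the lower gene of the list, at 2.72 in non-cycling Foxp3+ cells and 8.90 in Foxp3=0 cells.

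Receptors that receive costimulation were mostly higher. Of 9, all of which passed the filter, 6 were at least 1.5-fold higher in non-cycling Foxp3+ cells and 2 were lower, with a median log2 ratio of 0.82. Tnfrsf4, OX40, had 23.3 UMIs per 10000 in non-cycling Foxp3+ cells and 9.16 in Foxp3=0 cells. Its cell-by-cell lowest, median and highest levels were 0, 19.2 and 126 in non-cycling Foxp3+ cells and 0, 5.90 and 122 in Foxp3=0 cells. Tnfrsf18, GITR, had 14.8 and 8.40, Tnfrsf9, 4-1BB, had 9.23 and 5.20, and Icos had 5.18 and 3.11. Cd27 had the highest log2 ratio of the list, 1.82 (1.59 to 2.05), at 2.33 and 0.663. Cd28 was level at 2.41 and 2.49. Cd226, the activating partner of Tigit for shared ligands, had 0.310 in non-cycling Foxp3+ cells and 1.14 in Foxp3=0 cells, and Tnfrsf25, death receptor 3, had 0.217 and 0.405.

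Co-inhibitory receptors went both ways. Of 9 that passed the filter, out of 10 listed, 3 were at least 1.5-fold higher in non-cycling Foxp3+ cells (Ctla4, Klrg1 and Tigit) and 4 were lower, with a median log2 ratio of -0.34. Pdcd1, which encodes the PD-1 receptor that the antibody blocks, had 2.27 UMIs per 10000 in non-cycling Foxp3+ cells and 3.49 in Foxp3=0 cells, a log2 ratio of -0.62 (-0.79 to -0.45). It was found in 58.8% of non-cycling Foxp3+ cells and 62.2% of Foxp3=0 cells. Pdcd1 stayed lower but short of 1.5-fold without cells with Cd8a or Cd8b1 (log2 ratio -0.47), without cells with tumour epithelial markers (-0.51), against Foxp3=0 cells that lacked Ikzf2 and Il2ra (-0.47), and without cells with UMIs of other cell types (-0.24 with Cst3 counted, -0.56 without). Tigit had 0.236 and 0.0987. Havcr2 (Tim-3), Cd160 and Cd96 made up the other lower genes, and Lag3 had 1.99 and 2.41. Without cells with UMIs of other cell types (21 and 92 cells), Havcr2 and Cd160 turned to log2 ratios of 1.68 and 0.17. Havcr2 was also short of 1.5-fold lower with means over cells, against Foxp3=0 cells that lacked Ikzf2 and Il2ra, and without cells with further cell cycle genes, other cell types with Cst3 not counted, Cd8a or Cd8b1, or tumour epithelial markers.

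Most genes of the interleukin-2 pathway were within 1.5-fold. Of 11 genes, all past the filter, 1 was at least 1.5-fold higher in non-cycling Foxp3+ cells, Il2ra, and 1 was lower, Bcl2, with a median log2 ratio of 0.14. The other receptor chains were close, Il2rb at 3.43 UMIs per 10000 in non-cycling Foxp3+ cells and 3.13 in Foxp3=0 cells and Il2rg at 4.13 and 3.61. Cish, a feedback inhibitor induced by STAT5, had 2.04 and 2.02. Bcl2, which protects from apoptosis, had 0.621 and 2.05, a log2 ratio of -1.72 (-2.04 to -1.42).

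Receptors for other cytokines gave 5 of 12 filtered genes at least 1.5-fold higher and 2 lower, with a median log2 ratio of 0.31. Ifngr1, a chain of the interferon-gamma receptor, had 10.2 UMIs per 10000 in non-cycling Foxp3+ cells and 6.59 in Foxp3=0 cells. Ifnar1, Il4ra, Il6st and Tgfbr1 were the other higher genes. Ifngr1 was short of 1.5-fold with means over cells, thinned to 3000 UMIs and without cells with Cd8a or Cd8b1. It also fell short without cells with UMIs of other cell types, Cst3 counted or not. Ifnar1, Il4ra and Il6st were each short of 1.5-fold in at least 1 alternative. Tgfbr2, the ligand-binding TGF-beta receptor chain, had 0.459 and 0.847, and Il18rap had 0.317 and 0.620. Il7r, often low on regulatory T cells, was level at 3.17 in non-cycling Foxp3+ cells and 2.93 in Foxp3=0 cells.

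Homing genes also divided. Of 11 that passed the filter, out of 13 listed, 4 were at least 1.5-fold higher in non-cycling Foxp3+ cells and 3 were lower, with a median log2 ratio of 0.39. Ccr2, a receptor for inflammatory chemokines, had 2.71 UMIs per 10000 in non-cycling Foxp3+ cells and 0.870 in Foxp3=0 cells. Cxcr3, the receptor for interferon-induced chemokines, had 1.98 and 1.19, and Itgb7, the integrin chain that pairs with the Itgae product, had 5.08 and 2.26. Ccr7, the lymph node homing receptor, had 0.391 and 0.918. Cxcr6, a receptor of tissue-resident T cells, had 1.92 in non-cycling Foxp3+ cells, 6.65 in Foxp3=0 cells and 7.97 in CD8 cells. Itgb1 was lower as well, at 1.26 and 2.81. Cxcr6 turned to a log2 ratio of 0.10 without cells with UMIs of other cell types (21 and 92 cells).

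Transcription factors of T cell fate were centred on no change. Of 16 that passed the filter, out of 22 listed, 5 were at least 1.5-fold higher in non-cycling Foxp3+ cells and 3 were lower, with a median log2 ratio of -0.01. Maf, a regulator of Il10, had 4.79 UMIs per 10000 in non-cycling Foxp3+ cells and 2.41 in Foxp3=0 cells. Ikzf2, Ikzf4, Prdm1 and Batf were the other higher genes. Tcf7, which encodes the stem-like and memory factor TCF-1, had 0.143 and 0.635, a log2 ratio of -2.15 (-2.84 to -1.53), and Runx1 and Runx3 were lower by smaller steps. Tbx21, which encodes T-bet, had 0.298 and 0.359. Of 8 filtered genes of naive and memory T cells, none was higher and 3, Tcf7, Klf3 and Ccr7, were lower, with a median of -0.55. All 3 reached the 10% filter only in Foxp3=0 cells, where they were higher, so their count is a description. They were found in 7.08%, 4.17% and 9.58% of non-cycling Foxp3+ cells and 21.1%, 13.2% and 13.8% of Foxp3=0 cells.

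Helper cytokines and ligands that passed the filter were lower. All 9 of them, of 18 listed and 12 in the table, were at least 1.5-fold lower in non-cycling Foxp3+ cells, with a median log2 ratio of -2.25. Csf2, Cd40lg, Tnfsf8 and Lta reached the 10% filter only in Foxp3=0 cells, where they were higher. The count and median of the list are thus in part set by the filter. Ifng had 1.01 UMIs per 10000 in non-cycling Foxp3+ cells and 5.92 in Foxp3=0 cells, found in 24.2% and 45.1% of the cells. Csf2, which encodes GM-CSF, had 0.608 and 2.90, found in only 4.58% of non-cycling Foxp3+ cells and 15.3% of Foxp3=0 cells. The 12 richest non-cycling Foxp3+ cells held 68.1% of that group's Ifng UMIs and 100% of its Csf2 UMIs. The 33 richest Foxp3=0 cells held 75.3% and 90.3% of theirs. Cd40lg, the signal that helper cells give to B and dendritic cells, had 0.155 and 0.612, and Lta, lymphotoxin alpha, had 0.230 and 1.16. Tnf was closest to the threshold, at 0.410 and 0.643, and turned to a log2 ratio of 0.32 without cells with UMIs of 6 further cell cycle genes (89 and 260 cells). Il2 did not pass the filter and had 5 UMIs in non-cycling Foxp3+ cells and 206 in Foxp3=0 cells.

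Cytotoxic and chemokine genes went both ways. Of 13 that passed the filter, out of 14 listed, 2 (Gzmb and Ccl4) were at least 1.5-fold higher in non-cycling Foxp3+ cells and 7 were lower, with a median log2 ratio of -1.20. Ccl4 had 6.71 UMIs per 10000 in non-cycling Foxp3+ cells and 4.45 in Foxp3=0 cells, found in 50.8% and 43.2% of the cells. It was short of 1.5-fold relative to the median gene and without cells with further cell cycle genes. Gzmf and Gzmc, further granzymes, had 0.366 and 1.18 UMIs per 10000 in non-cycling Foxp3+ cells, against 1.89 and 3.13 in Foxp3=0 cells. Xcl1, a chemokine for cross-presenting dendritic cells, had 0.615 and 3.00, and the NK receptor genes Klrd1, Klrc1 and Klrk1 were all lower. Nkg7, a granule protein, was level at 9.48 and 9.80.

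**Figure D2:**
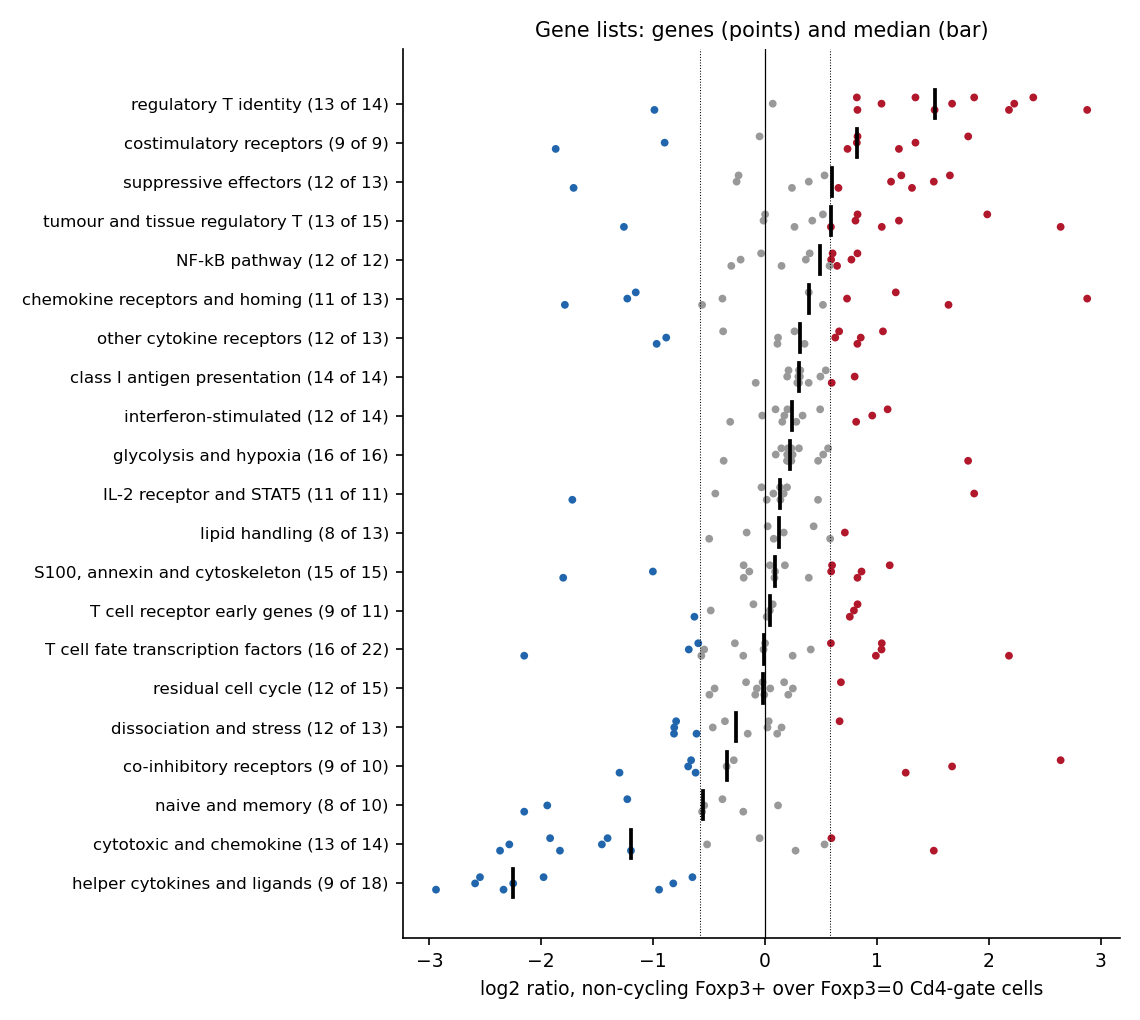
Log2 ratio of non-cycling Foxp3+ cells over Foxp3=0 cells for each gene that passed the 10% filter, by gene list, with the number passing out of the number listed in brackets. Points are genes, red if at least 1.5-fold higher and blue if at least 1.5-fold lower, the bar is the list's median and dotted lines mark 1.5-fold. Medians run from -2.25 for helper cytokines and ligands to 1.52 for regulatory T identity.

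Signalling and stress lists differed in direction. In the NF-kappa-B list, 5 of 12 genes were at least 1.5-fold higher in non-cycling Foxp3+ cells and none was lower, with a median log2 ratio of 0.49. Icam1, an adhesion ligand, had 0.937 UMIs per 10000 in non-cycling Foxp3+ cells and 0.529 in Foxp3=0 cells, and Birc3, a survival factor of the pathway, had 0.540 and 0.316. Nfkbia, the inhibitor that the pathway induces, had 13.1 and 8.72. Nfkbia was short of 1.5-fold relative to the median gene and without the deepest cells, cells with Cd8a or Cd8b1 or tumour marker cells. Nfkbid and Relb, also among the higher genes, fell short in several alternatives. Early genes of T cell receptor signalling gave 3 of 9 higher and 1 lower (median 0.04), with Nr4a1 at 1.21 and 0.716 and Egr1 at 0.782 and 1.21. Egr1 was short of 1.5-fold lower in most alternatives, among them means over cells, thinning to 3000 UMIs and cells without Cd8a or Cd8b1. Dissociation and stress genes gave 1 of 12 higher and 4 lower (median -0.26), with Hspa1a at 2.28 and 4.00. In cells without UMIs of other cell types, Nfkbia, Icam1, Relb, Egr1, Myc, Hspa1b and Zfp36 turned their direction, on only 21 non-cycling Foxp3+ cells and 92 Foxp3=0 cells.

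Interferon and antigen presentation genes stood slightly to the higher side. Of 12 filtered interferon-stimulated genes, 3 were at least 1.5-fold higher in non-cycling Foxp3+ cells and none was lower, with a median log2 ratio of 0.24. Igtp, an interferon-induced GTPase, had 2.22 UMIs per 10000 in non-cycling Foxp3+ cells and 1.04 in Foxp3=0 cells. Isg15 was level at 2.31 and 2.35. In the class I antigen presentation list, 2 of 14 were higher, the peptide transporter gene Tap1 (3.48 and 2.0) and the proteasome activator gene Psme2 (6.15 and 4.07), and the median was 0.31. H2-K1, a class I heavy chain, had 48.9 and 39.4, and B2m had 37.7 and 32.9. Psme2 was short of 1.5-fold with means over cells, relative to the median gene, and without the deepest cells, cells with Cd8a or Cd8b1 or cells with UMIs of other cell types, Cst3 counted or not.

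In the glycolysis and lipid lists, 1 gene each was past 1.5-fold. Of 16 glycolysis and hypoxia genes, 1 was at least 1.5-fold higher in non-cycling Foxp3+ cells, Bnip3, a mitochondrial protein induced by hypoxia, at 0.882 UMIs per 10000 in non-cycling Foxp3+ cells and 0.250 in Foxp3=0 cells (list median log2 ratio 0.22). Of 8 filtered lipid genes, 1 was higher, the fatty acid binding protein gene Fabp5, at 1.74 and 1.06 (median 0.12). S100, annexin and cytoskeleton genes gave 5 of 15 higher and 2 lower (median 0.09). Vim, the intermediate filament vimentin, had 23.4 and 12.9, and Lgals3, galectin-3, had 1.58 and 3.16. Residual cell cycle genes, read because Mki67 alone set the gate, were level: 1 of 12 filtered genes, H2afz, was higher, none was lower and the median was -0.01. H2afz was short of 1.5-fold with means over cells, thinned to 3000 UMIs, and without the deepest cells, cells with Cd8a or Cd8b1 or cells with UMIs of other cell types, Cst3 counted or not. Top2a was found in 30.8% of non-cycling Foxp3+ cells and 30.7% of Foxp3=0 cells.

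The number of Foxp3 UMIs in a cell gave a further view of the same contrast. The gene that defines the steps chose the cells, and median depth moved with it, at 5452.5 UMIs with 0 Foxp3 UMIs, 5113.5 with 1, 6672 with 2 and 6991 with 3 or more. Ikzf2 stood at 2.49, 10.7, 12.3 and 11.3 UMIs per 10000 over these 4 steps, and Ctla4 at 3.17, 9.66, 9.75 and 10.9. Both were near their highest already at 1 Foxp3 UMI. Klrg1 was higher at each step, at 0.367, 1.46, 2.53 and 3.06, and Tcf7 was lower at each, at 0.635, 0.236, 0.167 and 0.0180. Areg was highest at 2 UMIs, with 1.03, 4.40, 5.32 and 2.81. Gzmb stood at 3.80, 9.08, 8.82 and 14.3, and Cxcr6 at 6.65, 2.77, 1.57 and 1.22. Cd4 itself was 4.20, 3.40, 2.36 and 2.72.

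**Figure D3:**
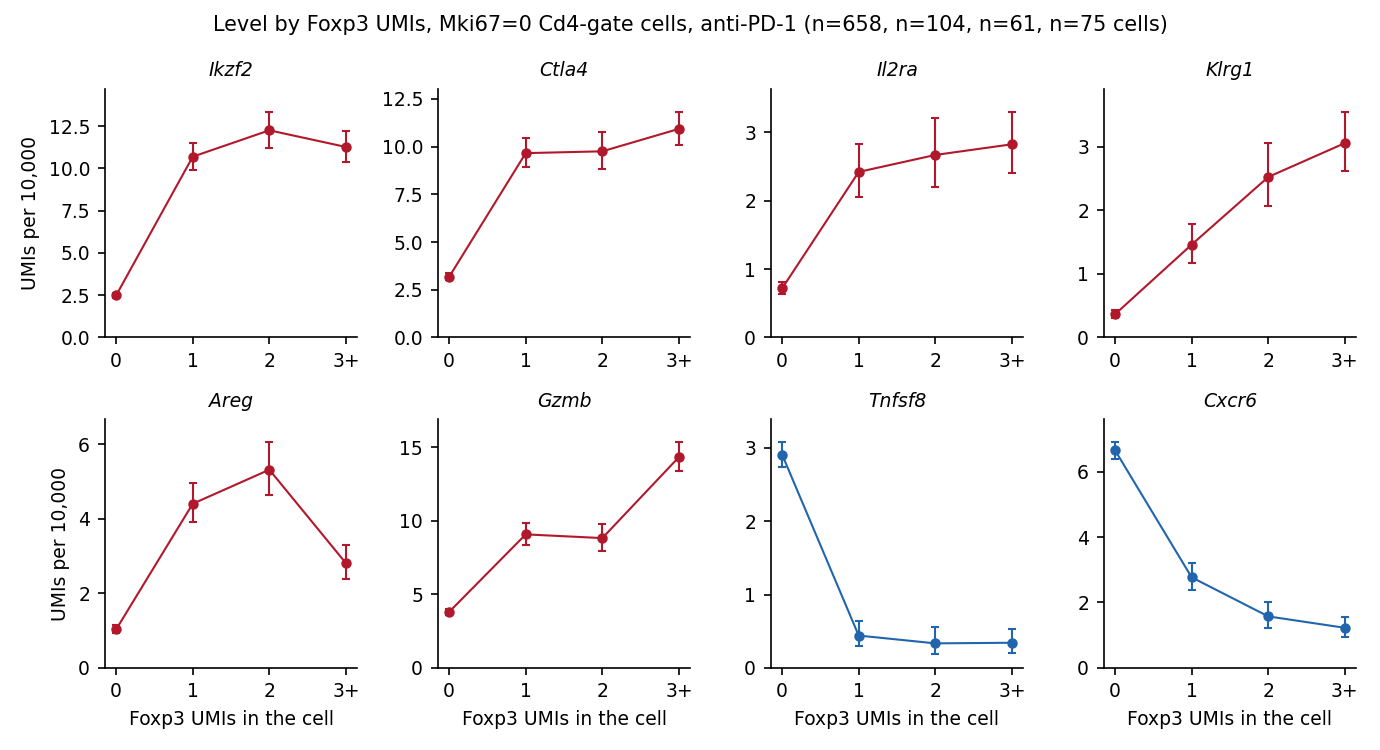
Level of 8 genes in Mki67=0 Cd4-gate cells of the anti-PD-1 library by the number of Foxp3 UMIs in the cell (658, 104, 61 and 75 cells), in UMIs per 10000 with exact 95% Poisson intervals. Red panels are higher and blue panels lower at 1 Foxp3 UMI than at 0. Ikzf2, Ctla4 and Il2ra change little after the first step, Klrg1 is higher at each step and Areg is 2.81 at the last.

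The non-cycling Foxp3+ cells also differed among themselves. After thinning to 3000 UMIs, 232 cells remained, and the variance of UMIs over cells divided by the mean had a median of 1.06 over 3668 genes, close to the value of 1 that random counting gives. Ccl4, an inflammatory chemokine, had the highest ratio, 28.6, with up to 84 UMIs in a cell and none in most, as 32.8% of the cells carried it. Ccl1 (26.6), Malat1 (20.6), Ctla2a (18.1), Gzmc (16.1), Ccl5 (13.6), Ifi27l2a (12.5), Cxcl2 (11.7), Areg (11), Gzmb (11), Ifitm1 (10.5), Tmsb4x (10.4), Csf2 (10.4), Ifit3 (9.10) and Ifit2 (7.83) followed. Chemokines, granzymes, Areg and interferon-induced genes were thus among the 15. Malat1 and Tmsb4x, with means of 66.3 and 55.3 UMIs, were found in 100% of the cells and Ifi27l2a in 96.6%. A high ratio alone therefore does not mean that a gene sat in few cells. At 2000 UMIs, 12 of these 15 genes were still among the 15 highest.

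The UMIs of Ccl4, Ccl1 and Ifit3 were concentrated in few cells. The 12 richest of the 240 held 75.1% of the Ccl4 UMIs, 93.9% of the Ccl1 UMIs and 85.6% of the Ifit3 UMIs. For Ikzf2 the same share was 12.3%, and for Tnfrsf18 13.2%. The 33 richest Foxp3=0 cells held 80.9% of that group's Ccl4 UMIs, 76.4% for Ccl1 and 68.6% for Ifit3. Their share was 34.3% for Ikzf2 and 19.8% for Tnfrsf18.

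Klrg1 divided the thinned cells into 88 with and 144 without a UMI. Areg had 6.89 UMIs per 10000 in cells with Klrg1 and 2.48 in cells without, a log2 ratio of 1.48 (1.12 to 1.84), and was found in 40.9% and 20.1% of them. Ccr2 had 5.04 and 1.88, Gzmb 16.1 and 9.10, Ctla4 14 and 7.80 and Icos 6.93 and 4.54. Foxp3 had 3.98 and 3.19, and its interval spans equality (log2 ratio 0.32, -0.06 to 0.69). Il1rl1 had 12 UMIs in cells with Klrg1 and 6 in cells without, a log2 ratio of 1.71 (0.18 to 3.41). On the lower side, Ccl1 had 2 UMIs in cells with Klrg1 and 86 in cells without, a log2 ratio of -4.72 (-7.78 to -2.82). Ccr7 had 2 and 22 UMIs (-2.75, -5.88 to -0.72) and Ifit3 11 and 47 (-1.38, -2.48 to -0.42). Isg15 and Fos had log2 ratios of -0.74 (-1.29 to -0.22) and -0.89 (-1.46 to -0.34). For Pdcd1, Il7r and Cxcr6 the intervals span equality. Of cells with and without Klrg1, Ccl1 was found in 2.27% and 7.64%, Ccr7 in 2.27% and 4.86% and Ifit3 in 5.68% and 8.33%. Isg15 was found in 26.1% and 29.9%, Fos in 27.3% and 32.6% and Il1rl1 in 11.4% and 3.47%. Within each of these pairs the intervals of the shares overlap, and the ratio intervals treat every UMI as independent.

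**Figure D4:**
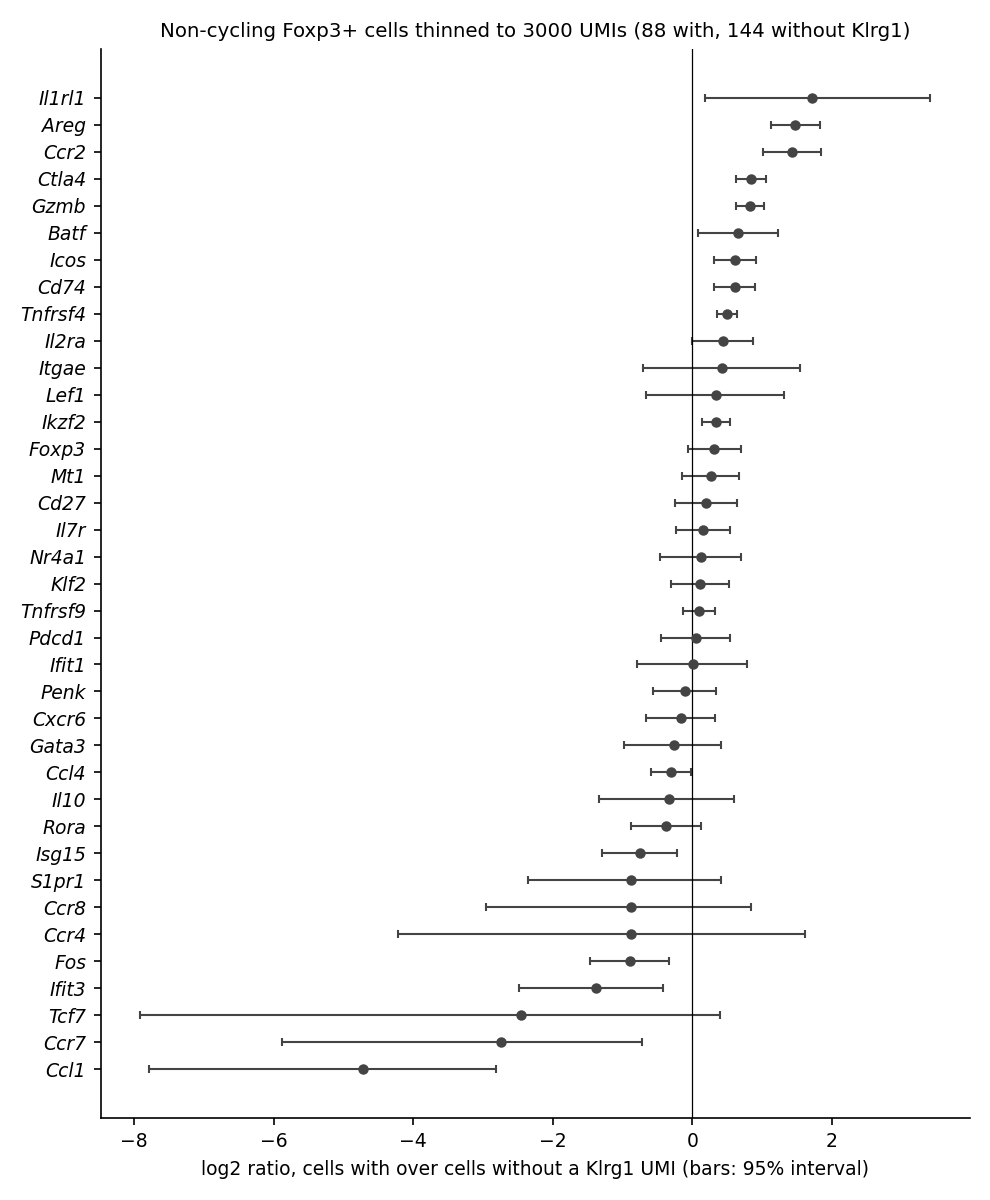
Log2 ratio of 88 non-cycling Foxp3+ cells with a Klrg1 UMI over 144 without, each cell thinned to 3000 UMIs, for 37 genes, with 95% intervals that cover counting error only. Il1rl1, Areg and Ccr2 lie farthest to the right, at 1.71, 1.48 and 1.43, and Ccl1 and Ccr7 farthest to the left, at -4.72 and -2.75. Ccl1 was found in 2.27% of the cells with Klrg1 and 7.64% of those without, and Ccr7 in 2.27% and 4.86%.

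Other splits of the thinned cells gave partly the same genes. The 65 cells with Areg, against 167 without, had Il1rl1 at 0.615 and 0.120 UMIs per 10000 and Ctla4 at 14.3 and 8.54, while Gzmb was 10.5 and 12.3. Il1rl1 rested on 12 and 6 UMIs, in 13.8% and 3.59% of the cells, and the interval of the Gzmb ratio spans equality. The 156 cells with Gzmb, against 76 without, had Klrg1 at 3.25 and 0.921 and Ccr2 at 3.74 and 1.71, and Penk at 1.45 and 5.13. The 20 cells with Il10, against 212 without, had Gzmb at 21.8 and 10.8, Ctla4 at 19.0 and 9.32 and Il7r at 6.17 and 3.07. Gzmb was found in 75% and 66.5% of them. For the genes named in these splits, the intervals of the shares of cells overlap, except for Klrg1 in the Gzmb split. All are splits of the same cells of 1 library, and the genes that define them were picked with their spread already known.

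Against the 156 cycling Foxp3+ cells of the same library, 7413 genes passed the filter, of which 693 (9.35%) were at least 1.5-fold higher in non-cycling Foxp3+ cells and 1024 (13.8%) were lower. Median depth was 6212 UMIs in non-cycling Foxp3+ cells and 10271.5 in cycling ones. In the cell cycle list 15 of 15 genes were lower, with a median log2 ratio of -2.91. Mki67 chose these cells, so this is a description. Top2a had 0.621 UMIs per 10000 in non-cycling and 6.09 in cycling cells.

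Identity genes differed less between these groups. Of 13, 2 were at least 1.5-fold higher in non-cycling cells and none was lower, with a median log2 ratio of 0.31. Ikzf2 had 11.3 UMIs per 10000 in non-cycling and 8.96 in cycling Foxp3+ cells, Il2ra 2.63 and 2.34, Ctla4 10.1 and 8.65 and Klrg1 2.29 and 2.21. Effector and chemokine genes were farther apart: 10 of 13 in the cytotoxic and chemokine list were higher in non-cycling cells, with a median of 0.84. Gzmb had 10.8 and 5.81, Ccl4 6.71 and 1.94 and Ccl5 17.1 and 8.81. Il10 had 0.484 and 0.170, and Il7r 3.17 and 1.64. Glycolysis genes had a median of -0.03, with no gene past 1.5-fold, and Fabp5 was lower at 1.74 in non-cycling and 2.75 in cycling cells. The Gzmb and Ccl5 gaps were not shared by all cycling cells. The 70 with 1 Mki67 UMI had Gzmb at 10.9 and Ccl5 at 15.8, near the non-cycling cells. The 86 with 2 or more had Gzmb at 3.90 and less Ccl5 than those 70. Median depth was 6907.5 UMIs in the 70 cells and 15301.5 in the 86. The rest of the list was not split this way, and the part of depth was not tested.

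The same rule found few cells in the other libraries. It took 8 of 297 ATT-I cells, 8 of 199 combination cells and 1 of 155 vehicle cells, too few to compare genes at large. As a share of Mki67=0 Cd4-gate cells, non-cycling Foxp3+ cells made up 240 of 898 with anti-PD-1 (26.7%, 23.9% to 29.7%), 8 of 76 with ATT-I (10.5%, 4.66% to 19.7%), 8 of 29 with the combination (27.6%, 12.7% to 47.2%) and 1 of 27 with vehicle (3.70%, 0.0937% to 19.0%). These shares leave out cycling cells. Of the Foxp3+ cells in the gate, 16 of 17 had Mki67 with vehicle and 156 of 396 with anti-PD-1. The low vehicle share is therefore not a low share of all Foxp3+ cells, and shares with cycling cells kept are given further below.

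Of all Foxp3+ cells in the gate, those without Mki67 were 60.6% with anti-PD-1 (55.6% to 65.4%, 396 cells), 47.1% with ATT-I (23% to 72.2%, 17 cells), 32.0% with the combination (14.9% to 53.5%, 25 cells) and 5.88% with vehicle (0.149% to 28.7%, 17 cells). A deeper cell has more chance of an Mki67 UMI, and the median depth of these cells was 6998, 11928, 23397 and 17490 UMIs in the same order of libraries. Thinned to 3000 UMIs, 149 Foxp3+ gate cells remained with anti-PD-1, 75.8% of them without Mki67, and at most 4 in each other library. How far depth accounts for the difference was not tested in those libraries for want of cells. Differences of treatment and of library cannot be told apart.

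Levels in these few cells are given with exact Poisson intervals. Ikzf2 stood at 11.3 UMIs per 10000 (10.8 to 11.8) in the non-cycling Foxp3+ cells of anti-PD-1, 9.91 (7.68 to 12.6) in ATT-I, 13.7 (11.9 to 15.7) in the combination and 24.6 (17.5 to 33.6) in the lone vehicle cell. Areg was 4.09 with anti-PD-1, 0.887 with ATT-I (0.326 to 1.93), 2.38 with the combination (1.67 to 3.29) and 0 in the vehicle cell, with an interval of up to 2.33. Gzmb was 10.8 with anti-PD-1, 10.8 with ATT-I, 1.65 with the combination (1.07 to 2.44) and 0.630 in the vehicle cell (0.0160 to 3.51). Ctla4 was 10.1, 7.10, 4.56 and 23.3 in anti-PD-1, ATT-I, the combination and vehicle. Areg UMIs came from 2 of 8 ATT-I cells and 3 of 8 combination cells, so 1 cell can decide these levels.

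**Figure D5:**
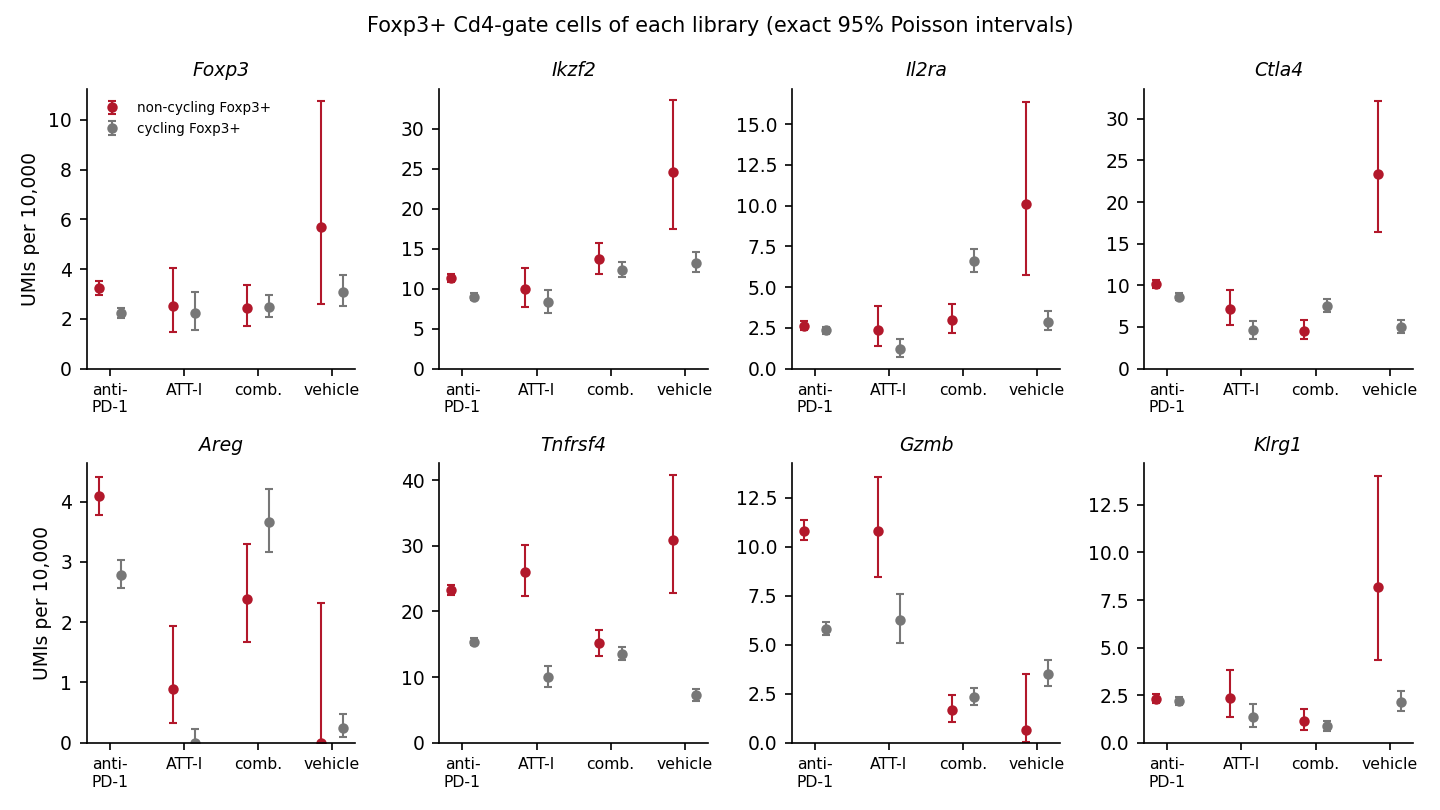
Level of 8 genes in Foxp3+ Cd4-gate cells of the anti-PD-1, ATT-I, combination (comb.) and vehicle libraries, in UMIs per 10000 with exact 95% Poisson intervals, for non-cycling cells (red: 240, 8, 8 and 1 cells) and cycling cells (grey: 156, 9, 17 and 16 cells). Areg in ATT-I and Gzmb in the combination, each on 8 non-cycling cells, are lower than in the anti-PD-1 non-cycling cells. The vehicle value is 1 cell, with 0 Areg UMIs and 1 Gzmb UMI, and the median anti-PD-1 non-cycling cell also has 0 Areg.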

How the data were processed

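Per the submitters' processing notes, reads were processed with Cell Ranger and Seurat on genome build mm10, versions not given in the sources used here. The deposited table of the authors holds 13518 genes and 13213 cells on a natural log scale. Each value was taken to be ln(1 + UMIs scaled to 10000 in that cell), lowered by a constant of each library (0.249 in anti-PD-1, 0.153 in ATT-I, 0.225 in the combination, 0.247 in vehicle), with values below 0 set to 0. No label explains the constant. With it, 100% of non-zero values came out within 0.02 of a whole UMI or, at high counts, within a small fixed fraction of the count. In 37 anti-PD-1, 0 ATT-I, 37 combination and 21 vehicle cells the lowest value kept is above 1 UMI, so genes with 1 UMI can read as 0 there. Median depth was 7148, 6828, 23927 and 16129 UMIs in the same order.

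Libraries were read from column names. The gate was applied to the deposited values in Python 3.11.15 (numpy 2.4.6, scipy 1.17.1, matplotlib 3.10.9). Ratios are of summed UMIs, with exact conditional 95% intervals, and genes needed a UMI in at least 10% of the cells of either group. No pseudocount was used, and where a group was at 0 a floor of 3 counts stood in for it. No doublet caller was run, and the deepest 5% of cells were left out as an alternative. The ratio and its interval were tested on simulated data with known changes. Genes named are those of the lists, the 15 highest and 15 lowest ratios (leaving out T cell receptor variable, immunoglobulin, haemoglobin, ribosomal and mitochondrial genes) and the 15 with the highest variance over mean. The cells, lists and splits were chosen with earlier results of these data known. A few genes are not reported here and were left out of the lists and their counts. Gene positions are from GENCODE vM21 on GRCm38 and promoters from RefSeq, in which Ikzf2 had no match. Cells of 1 library are not replicates, so no p-value was computed. Alternatives changed the filter, depth, cells and scale.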

Additional observations from a re-analysis of the deposited data

How the results depend on the processing

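The counts of 520 genes higher in non-cycling Foxp3+ cells and 374 genes lower in non-cycling Foxp3+ cells stayed within 1.5 times with means over cells, at least 2 Foxp3 UMIs, Foxp3=0 cells without Ikzf2 and Il2ra, the deepest 5% left out, thinning to 3000 UMIs, ratios relative to the median gene, and, chosen after seeing the data, without Cd8a or Cd8b1 cells or tumour marker cells. They were 245 and 119 with a UMI in 25% of cells and 1807 and 1627 with no filter. Without cells with UMIs of other types they were 1485 and 827 (21 non-cycling Foxp3+ cells and 92 Foxp3=0 cells), with Cst3 not counted, a choice made after seeing the data, 859 and 661 (78 and 223 cells), and without 6 further cell cycle genes 931 and 638 (89 and 260 cells). Fewer cells make each ratio less precise. Of the 894 genes, 639 (of 803 with a value, without other types) to 894 kept their direction, and the deposited log scale gave directions only.

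Without other cell types, log2 ratios turned to 0.40 for Nrp1, -1.38 for Fgl2, 1.68 for Havcr2, 0.17 for Cd160, 0.10 for Cxcr6, -0.19 for Relb, -0.41 for Nfkbia, -3.48 for Icam1, 0.90 for Egr1, -0.54 for Myc, 0.43 for Hspa1b, -0.65 for Zfp36, -0.30 for Irf1, -0.76 for H2-Ab1 and -0.47 for Ighm. Elsewhere Tnf turned to 0.32 (cell cycle genes), Cd160 to 0.027 (thinned) and Myc to -0.33 (Cst3 not counted). The cause was not tested.

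The anti-PD-1 share was 18.9% thinned, 15.1% with at least 2 Foxp3 UMIs and 30.4% with cycling cells kept. Thinned, it was 4.55% in ATT-I, 11.5% in the combination and 0% in vehicle. At the depth deposited, without thinning, 25.8% of vehicle gate cells were Foxp3+ with cycling cells kept. Shallow cells and 1 library per arm limit all of these. No paired analysis was possible because each arm is 1 library.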

Other observations

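Cd74, H2-Ab1, H2-Eb1, Ighm, Mt1, Mt2 and Mt3 were picked as single genes after their values had been seen. Cd74, the invariant chain that guides class II molecules, had 5.43 UMIs per 10000 in non-cycling Foxp3+ cells and 1.01 in Foxp3=0 cells, a log2 ratio of 2.42 (2.25 to 2.59), and was found in 69.2% and 26.4% of the cells. Among the class II chains, H2-Ab1 had 0.484 and 0.172 and H2-Eb1 had 0.497 and 0.119. Ighm, an immunoglobulin heavy chain gene, had 2.12 and 0.612. B cell markers summed to 0.602 in non-cycling Foxp3+ cells and 0.116 in Foxp3=0 cells, and 19.6% and 4.10% of the cells carried at least 1 of them. Without cells with UMIs of other cell types except Cst3, the log2 ratios were 2.15 for Cd74, 1.52 for H2-Ab1 and 1.40 for Ighm (78 non-cycling Foxp3+ cells and 223 Foxp3=0 cells), and with Cst3 counted H2-Ab1 and Ighm turned to -0.76 and -0.47 (21 and 92 cells). The part of B cell RNA was not tested further. Mt1, a metal-binding stress protein, had 2.81 and 0.739, and Mt2 and Mt3 had log2 ratios of 1.75 and 1.74. The 12 richest of the 240 cells held 58.2% of their Mt1 UMIs, and the 33 richest Foxp3=0 cells 59.9% of theirs.

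Foxp3+ T cells that failed the Cd4 gate because Cd4 was at 0 numbered 650 among cells without Mki67. Il2ra had 1.79 UMIs per 10000 in them, Ctla4 6.34, Areg 2.10 and Tnfrsf4 13.4, all between the non-cycling Foxp3+ cells and the Foxp3=0 cells of the gate. Cd8a was found in 56.2% of them and Cd8b1 in 57.8%.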
